A study of Mus musculus with 12 samples.

Results

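Members of the tumour necrosis factor (TNF) family that B cells use were measured in B-lineage cells of wild type and TCL1 mice: the ligand genes Ltb, Lta, Tnf and Cd70 and the receptor genes Cd27, Cd40, Tnfrsf1b, Tnfrsf13b, Tnfrsf13c and Tnfrsf17. They were chosen by name, as every probe whose symbol equalled a member, and made up 10 of 30789 gene symbols and 20 of 45281 probes on the array. RNA was hybridised to 12 Illumina bead arrays, on which each gene is read by beads that carry a short probe. Cells had been separated by whether they bound phosphatidylcholine (PtC+) or not (PtC-); this membrane lipid is a self antigen that many B-1 B cells recognise. The peritoneal cavity of wild type mice, of young mice of the genotype TCL1 and of mice of the genotype TCL1-192 was sampled, and the spleen of TCL1-192 only. TCL1-192 had 2 arrays for each tissue and PtC class, and every wild type and young TCL1 class had 1 array. All groups shared a mixed background of C3H and C57BL/6, and the labels call all cells chronic lymphocytic leukaemia (CLL) cells, those of wild type mice included. TCL1 is an oncogene that gives mice a CLL-like disease when B cells express it. The sources used here do not give the promoter of the transgene, the age of the young or other mice, what 192 stands for, whether the TCL1-192 samples came from 1 leukaemia, the sorting gates, or which arrays share a mouse.

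TNF family ligands are trimers on the cell surface or in solution, and their receptors recruit TRAF adaptors that lead to NF-kB and, for some receptors, to cell death. Lymphotoxin beta (Ltb) holds lymphotoxin alpha (Lta) on the lymphocyte surface in a complex that signals to stromal cells through the lymphotoxin beta receptor and shapes lymphoid tissue. B cells receive T cell help through CD40, meet the ligand CD70 through CD27, and depend on BAFF and APRIL. BAFF alone binds the BAFF receptor (Tnfrsf13c), and both ligands bind TACI (Tnfrsf13b) and BCMA (Tnfrsf17, mainly on plasma cells).

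Ltb, Tnf and Lta lie side by side on chromosome 17, where the RefSeq annotation of GRCm38.p6 lists them in the order Ltb, Mir6973a, Tnf, Lta. Their promoter windows are shown because Ltb and Lta fell in TCL1-192 cells against wild type while Tnf passed the threshold in no contrast. Each window holds 250 bases before and 50 after the RefSeq start of the gene, 5′ to 3′ on the strand of the gene. The windows are chr17:35194257-35194556 on the plus strand for Ltb, chr17:35201958-35202257 on the minus strand for Tnf and chr17:35205302-35205601 on the minus strand for Lta. Capitals mark letters that match an NF-kB pattern, GGG and TTCC with any 3 bases between them, read here on the opposite strand.
Ltb: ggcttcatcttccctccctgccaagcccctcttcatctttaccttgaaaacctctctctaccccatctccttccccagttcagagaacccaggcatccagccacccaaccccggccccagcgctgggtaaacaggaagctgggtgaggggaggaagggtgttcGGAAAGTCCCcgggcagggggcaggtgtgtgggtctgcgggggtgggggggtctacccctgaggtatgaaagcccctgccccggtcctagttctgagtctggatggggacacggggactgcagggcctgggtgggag
Tnf: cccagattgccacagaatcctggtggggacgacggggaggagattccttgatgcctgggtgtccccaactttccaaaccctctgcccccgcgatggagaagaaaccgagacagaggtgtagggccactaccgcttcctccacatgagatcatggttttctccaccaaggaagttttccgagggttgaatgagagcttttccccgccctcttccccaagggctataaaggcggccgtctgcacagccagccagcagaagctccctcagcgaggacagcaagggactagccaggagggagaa
Lta: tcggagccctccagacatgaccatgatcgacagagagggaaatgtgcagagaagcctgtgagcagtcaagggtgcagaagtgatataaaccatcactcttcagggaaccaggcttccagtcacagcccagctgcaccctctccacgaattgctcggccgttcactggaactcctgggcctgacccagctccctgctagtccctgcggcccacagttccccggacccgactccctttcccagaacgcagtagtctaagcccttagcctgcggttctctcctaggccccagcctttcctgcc
The match in the Ltb window lies 87 to 78 bases before the start. Promoter windows were found for 8 of 10 members (not for Cd40 and Cd70), and the Ltb window was the 1 of 8 with these letters on either strand, beside 5.56% of the 32851 windows in the table. The AP-1 pattern TGANTCA (7.81% of windows) and the Egr pattern GCGNGGGCG (5.55% of windows) matched in 0 of 8. These matches describe letters in the sequence and say nothing about binding.

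Values are log2 levels, that is log2 of the background-corrected and quantile normalized signal, and 1 unit is a doubling. A probe counted as detected where its detection p was under 0.05, and the lowest detected level of an array lay between 5.49 and 5.69, except for 6.46 on the PtC- peritoneal TCL1-192 array of replicate 2. Of the 10 members, 8 were detected on at least 2 arrays and were tested among 13190 genes. Ltb, Cd40, Tnfrsf13b and Tnfrsf13c were detected on all 12 arrays, Tnfrsf1b on 9, Lta and Tnf on 5 each and Cd27 on 3. Cd70 (4.63 to 5.41) and Tnfrsf17 (4.71 to 5.46) were not detected on any array. Of 6 plasma cell markers, Sdc1 and Igj were undetected throughout, while 3 were detected in each peritoneal genotype and 4 in TCL1-192 spleen. Differences are given ± standard error (SE) from a limma model over all arrays, with p adjusted over all genes tested, and a gene is said to rise or fall where that p was under 0.05. So few arrays limit the precision, and since nothing says that TCL1-192 arrays came from separate mice, p-values measure only the spread between them. The spread of wild type and young TCL1 groups, with 1 array each, was taken to be that of the TCL1-192 groups.

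B cell markers fitted the labelled cell type: 8 of 9 were detected in every genotype and tissue, with Pax5 undetected throughout, and their summed linear signal was 42200 to 55870 in TCL1-192 and 59620 to 63710 in wild type and young TCL1 cells. Markers of other cells were detected too. Macrophage markers were detected for 11 of 15 genes in peritoneal TCL1-192 cells, 12 in wild type and 11 in young TCL1 cells, but for 2 of 15 in TCL1-192 spleen, where Lyz2, Csf1r and the C1q genes were undetected. Mast cell markers were detected for 6 of 7 genes in wild type and in young TCL1 cells. In TCL1-192 cells 2 of the 7 were detected in peritoneum and 2 in spleen. The mast cell genes Cpa3, Mcpt4, Cma1 and Kit were detected in wild type and young TCL1 cells and undetected on all 8 TCL1-192 arrays. Erythroid markers summed to 19660 to 33530 in peritoneal TCL1-192 cells and to 1209 to 1896 in spleen. In peritoneum their sum was 245.7 to 369.4 in wild type and 556.3 to 2650 in young TCL1 cells. In such mixtures fewer cells of a type and less RNA per cell cannot be told apart. The PtC- peritoneal TCL1-192 array of replicate 2 stood apart, with 10711 detected probes against 13825 to 15192 and a median signal of 219.2 against 99.4 to 121.4. Without that array the members called stayed at 3 between the tissues, 5 against wild type and 4 against young TCL1.

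**Figure D1:**
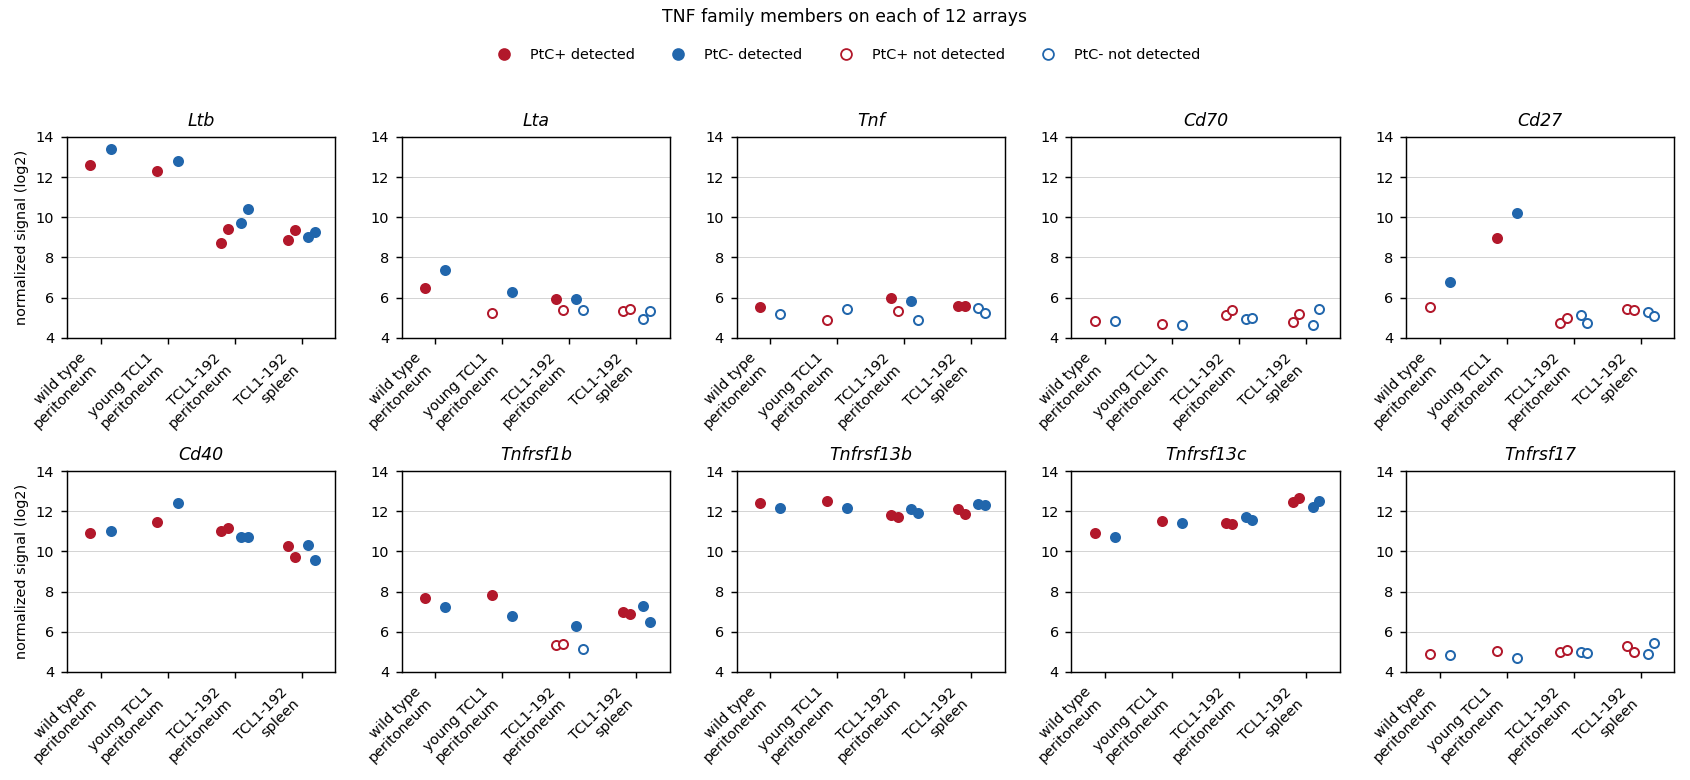
Log2 level of each member (vertical axis) on all 12 arrays, by genotype and tissue; red points are PtC+ and blue points PtC- arrays, and open points were not detected. Ltb lies at 12.29 or above in wild type and young TCL1 cells and at 10.41 or below on all 8 TCL1-192 arrays, Cd27 stands out in young TCL1 cells, and Cd70 and Tnfrsf17 are open throughout.

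Ltb was lower in TCL1-192 cells than in wild type and young TCL1 cells. Its log2 level was 12.59 in PtC+ and 13.41 in PtC- wild type cells, and 12.29 and 12.80 in young TCL1 cells. In TCL1-192 peritoneum it was 8.71 and 9.44 in PtC+ cells and 9.71 and 10.41 in PtC- cells. In TCL1-192 spleen it was 8.88 and 9.36 in PtC+ cells and 9.02 and 9.25 in PtC- cells. Every TCL1-192 array lay below every wild type and young TCL1 array, and the tissues of TCL1-192 overlapped. Ltb fell 10.8-fold in peritoneal TCL1-192 cells against wild type (log2 difference -3.43 ± 0.30, limma adjusted p = 0.00028) and 7.87-fold against young TCL1 (-2.98 ± 0.30, limma adjusted p = 0.00074). Only 1.24% of all genes tested had a larger absolute difference from wild type. Within PtC+ cells the differences were -3.51 ± 0.42 and -3.21 ± 0.42, and within PtC- cells -3.36 ± 0.42 and -2.75 ± 0.42, each past the threshold. Young TCL1 and wild type cells did not differ past the threshold (-0.46 ± 0.34, limma adjusted p = 0.72), and neither did spleen and peritoneum (-0.44 ± 0.24, limma adjusted p = 0.23).

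T cells express Ltb as well, and T cell markers moved with this comparison: of 6 tested, 3 fell and 0 rose in TCL1-192 peritoneum against wild type. Cd3g, part of the T cell receptor complex, was at 10.08 and 8.73 in wild type and at most 5.97 in peritoneal TCL1-192 cells. Cd3e was at 7.68 and 6.78 in wild type and undetected on all 8 TCL1-192 arrays. In young TCL1 PtC+ cells Ltb stood at 12.29 with Cd3e undetected at 4.94 and Cd3g at 7.48. There 5 of 13 T cell markers were detected. Against young TCL1, 2 of the 6 T cell markers fell and 1 rose, and 2 of 3 NK cell markers fell and 0 rose. Macrophage markers fell for 6 of 11 tested and rose for 1 against wild type, and 1 fell and 1 rose against young TCL1. Mast cell markers fell for 5 of 6 tested against wild type and 4 of 6 against young TCL1. The summed erythroid signal, given above, was higher in TCL1-192 peritoneum than in either group. The part of T cell, NK cell, macrophage, mast cell and erythroid RNA in the Ltb differences was not tested.

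The neighbouring ligand genes were close to the detection limit. Lta was at 6.5 in PtC+ and 7.39 in PtC- wild type cells, and at 5.25 (undetected) and 6.30 in young TCL1 cells. In TCL1-192 peritoneum it was detected at 5.92 on the replicate 1 array of both PtC classes and undetected at 5.38 and 5.37 on the replicate 2 arrays, and all 4 spleen arrays were undetected at 4.94 to 5.44. Both wild type arrays therefore lay above all others. Lta fell 2.46-fold in TCL1-192 peritoneum against wild type (-1.30 ± 0.25, limma adjusted p = 0.0087). With the 2 undetected of these 4 TCL1-192 arrays set to the higher of their own value and the lowest level detected on them, it was 1.93-fold lower. The difference was -1.75 ± 0.35 in PtC- cells (limma adjusted p = 0.023) and -0.85 ± 0.35 in PtC+ cells (limma adjusted p = 0.14). Against young TCL1 the difference was -0.13 ± 0.25 (limma adjusted p = 0.75). Tnf, the founding cytokine of the family, ranged from 4.87 to 5.98 with all groups overlapping. Its differences were 0.13 ± 0.30 against wild type and 0.36 ± 0.30 against young TCL1, and it passed the threshold in none of the 8 contrasts (smallest limma adjusted p = 0.45). The second probes of Lta (4.71 to 5.57) and Tnf (4.78 to 5.84) were each detected on 1 array and were not tested. Over the 12 arrays the correlation of log2 levels was 0.71 between Ltb and Lta and -0.42 between Ltb and Tnf, as a description over arrays that share genotypes and preparation.

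Cd27, the receptor for CD70, was high in young TCL1 cells and undetected in TCL1-192 cells. It was at 8.96 in PtC+ and 10.19 in PtC- young TCL1 cells. In wild type cells it was undetected at 5.52 in PtC+ and detected at 6.80 in PtC- cells. All 4 peritoneal TCL1-192 arrays (4.73 to 5.12) and all 4 spleen arrays (5.11 to 5.45) were undetected. Both young TCL1 arrays thus lay above all 10 others. Cd27 rose from wild type, where 1 of 2 arrays detected it, to young TCL1 (3.42 ± 0.21, limma adjusted p = 0.00061). The difference was at least 10.7-fold within PtC+ cells (3.44 ± 0.29) and 10.5-fold within PtC- cells (3.39 ± 0.29). It was the 1 of 8 members called in that comparison, in which 1.52% of all genes were called, 0.607% higher and 0.917% lower. The SE and p of all Cd27 differences rest on the spread of TCL1-192 arrays, where Cd27 was undetected, not on a spread of expressed Cd27. Cd27 was detected on both young TCL1 arrays and 1 wild type array. It thus passed the detection filter of at least 2 arrays only through the group where it was high. From young TCL1 to peritoneal TCL1-192 cells it was at least 13.1-fold lower (log2 difference -4.67 ± 0.18, limma adjusted p = 7.9e-06). Against wild type the model gave -1.25 ± 0.18 (limma adjusted p = 0.0028), with 1 of 2 wild type arrays undetected. With the 4 undetected TCL1-192 arrays set to the lowest level detected on them, Cd27 was 1.23-fold lower than in wild type. A weaker Cd27 probe gave -0.28 ± 0.17 in this comparison (limma adjusted p = 0.28 over 18100 probes). A fold given as "at least" sets each undetected array to the higher of its own value and the lowest level detected on it. The difference from wild type was called in PtC- cells, at least 1.69-fold (-1.86 ± 0.25, limma adjusted p = 0.0045), and not in PtC+ cells (-0.65 ± 0.25, limma adjusted p = 0.13), in which Cd27 was undetected on both sides.

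T and NK cells carry CD27 too, and the PtC- young TCL1 array held their transcripts: Cd3d was at 9.0, Thy1 at 8.35, Nkg7 at 7.76 and Klrd1 at 7.67. On the PtC+ young TCL1 array, where Cd27 was at 8.96, Thy1 (5.28), Cd3e (4.94), Nkg7 (4.97) and Klrd1 (4.69) were undetected, Cd3d was at 5.65 and Cd3g at 7.48. On the PtC+ wild type array Cd3g was higher, at 10.08, and Cd27 was undetected. T cell markers were detected for 5 of 13 genes on each of these PtC+ arrays and for 8 on the PtC- young TCL1 array. NK cell markers were detected for 1 of 7 genes on each of these PtC+ arrays and for 3 on the PtC- young TCL1 array. The part of T and NK cell RNA in the Cd27 differences was not tested. Across its probes the pattern held in direction: the weaker kept probe read 6.24 and 7.38 in young TCL1, was undetected in all TCL1-192 cells, and rose by 1.24 ± 0.20 from wild type to young TCL1 (limma adjusted p = 0.039 over 18100 probes). That probe was detected in PtC+ wild type cells at 5.87 and not in PtC- cells, the reverse of the brighter probe, and another Cd27 probe was undetected throughout.

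Cd40, the receptor for T cell help, was expressed on every array. It was at 10.90 in PtC+ and 11.03 in PtC- wild type cells, and at 11.48 and 12.41 in young TCL1 cells. In TCL1-192 peritoneum it was at 11.02 and 11.15 in PtC+ and at 10.72 and 10.74 in PtC- cells. In TCL1-192 spleen it was at 10.25 and 9.70 in PtC+ and at 10.34 and 9.59 in PtC- cells. All 4 spleen arrays lay below all 4 peritoneal arrays, the lowest levels of Cd40 in the data set. Cd40 was 1.91-fold lower in spleen than in peritoneum (-0.94 ± 0.21, limma adjusted p = 0.018). It was 2.05-fold lower in peritoneal TCL1-192 than in young TCL1 cells (-1.04 ± 0.26, limma adjusted p = 0.032), with -1.68 ± 0.36 in PtC- and -0.40 ± 0.36 in PtC+ cells, of which only the former was called. Against wild type it was -0.06 ± 0.26 (limma adjusted p = 0.88).

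Several Cd40 probes can be compared for direction. Of the 4 kept, 3 were detected on all 12 arrays and fell in spleen, by 0.94, 0.83 and 0.81 on the log2 scale (limma adjusted p of 0.019, 0.033 and 0.034 over 18100 probes). The fourth and dimmest probe was undetected on all peritoneal TCL1-192 arrays and gave 0.43 ± 0.16 in the other direction (limma adjusted p = 0.096). With the mean of the 4 probes the spleen difference was -0.54 (limma adjusted p = 0.062), and with arrays centred on their medians it was -0.58 (limma adjusted p = 0.19). It was also past 0.05 without any of 3 arrays: peritoneal PtC+ replicate 2 (0.068), spleen PtC+ replicate 2 (0.063) and spleen PtC- replicate 2 (0.058), all limma adjusted p. Against young TCL1 the probes gave -1.04, -0.85, -0.80 and -0.36 (limma adjusted p of 0.034, 0.074, 0.033 and 0.39 over 18100 probes), so that 2 of 4 did not pass. The young TCL1 comparison lost its call without either PtC+ peritoneal TCL1-192 array (limma adjusted p of 0.081 and 0.077).

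Tnfrsf1b encodes TNF receptor 2, which responds mainly to membrane TNF. It was at 7.68 and 7.21 in PtC+ and PtC- wild type cells and at 7.85 and 6.77 in young TCL1 cells. In TCL1-192 peritoneum it was undetected at 5.34 and 5.40 in PtC+ cells and at 5.15 in PtC- replicate 2, and was detected at 6.29 in PtC- replicate 1. In TCL1-192 spleen it was at 6.96 and 6.89 in PtC+ and at 7.27 and 6.49 in PtC- cells. Peritoneal TCL1-192 arrays were below all others, with spleen arrays within the range of young TCL1 and wild type cells or just under it. Tnfrsf1b was 2.57-fold higher in spleen than in peritoneum (1.36 ± 0.28, limma adjusted p = 0.014). It was 3.73-fold lower in TCL1-192 peritoneum than in wild type (-1.90 ± 0.35, limma adjusted p = 0.0078) and 3.41-fold lower than in young TCL1 (-1.77 ± 0.35, limma adjusted p = 0.014). These folds use measured values, and 1 of 4 peritoneal TCL1-192 arrays detected the gene. With the 3 undetected arrays set to the higher of their own value and the lowest level detected on them, the folds were 1.83 for spleen, 2.67 for wild type and 2.43 for young TCL1. These calls held within PtC+ cells (at least 2.37-fold, 3.99-fold and 4.51-fold) and not within PtC- cells. The spleen call was lost without the replicate 1 spleen arrays (limma adjusted p of 0.057 without PtC+ and 0.055 without PtC-) or without peritoneal PtC+ replicate 2 (0.053).

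Macrophages also express Tnfrsf1b, and 6 of 11 macrophage markers tested fell in TCL1-192 peritoneum against wild type while 1 rose. Against young TCL1, 1 of the 11 fell and 1 rose. In spleen against peritoneum 9 of 11 fell and 0 rose, with a summed signal of 1568 to 1729 against 7555 to 14800 in peritoneum. The part of macrophage or erythroid RNA in the Tnfrsf1b differences was not tested. A dimmer Tnfrsf1b probe (4.91 to 5.87, detected on 3 arrays) passed the threshold in no contrast.

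The 3 receptors for BAFF or APRIL differed from each other. Tnfrsf13c, the BAFF receptor, was at 10.92 and 10.70 in PtC+ and PtC- wild type cells and at 11.52 and 11.43 in young TCL1 cells. In TCL1-192 peritoneum it was at 11.43 and 11.37 in PtC+ and at 11.72 and 11.57 in PtC- cells. In spleen it was at 12.48 and 12.67 in PtC+ and at 12.21 and 12.52 in PtC- cells. Levels were thus lowest in wild type and highest in TCL1-192 spleen, without overlap, and young TCL1 and peritoneal TCL1-192 cells overlapped between them. Tnfrsf13c was 1.93-fold higher in spleen than in peritoneum (0.95 ± 0.14, limma adjusted p = 0.0035), with 1.18 ± 0.19 in PtC+ cells and 0.72 ± 0.19 in PtC- cells (limma adjusted p of 0.0083 and 0.075). It was 1.64-fold higher in peritoneal TCL1-192 than in wild type cells (0.71 ± 0.17, limma adjusted p = 0.02), a call that was lost within each PtC class (0.48 in PtC+ and 0.94 in PtC- cells) and with arrays centred on their medians (0.42, limma adjusted p = 0.49). Against young TCL1 it gave 0.04 ± 0.17, and young TCL1 against wild type 0.67 ± 0.19 (limma adjusted p = 0.2).

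Tnfrsf13b, which encodes TACI, was high and nearly even. It was at 12.39 and 12.17 in wild type, at 12.51 and 12.16 in young TCL1, between 11.70 and 12.12 in TCL1-192 peritoneum and between 11.88 and 12.36 in spleen. All peritoneal TCL1-192 arrays lay below both wild type and both young TCL1 arrays, by differences that did not pass the threshold (-0.38 ± 0.16, limma adjusted p = 0.12, and -0.44 ± 0.16, limma adjusted p = 0.096). Both passed in the authors' quantile normalized table (limma adjusted p of 0.041 and 0.028). A dimmer probe of the gene gave 0.21 ± 0.24 and -0.03 ± 0.24 in the same comparisons and -0.37 ± 0.19 in spleen, where the brighter one gave 0.28 ± 0.13, so the probes did not share a direction. Tnfrsf17, as said, was undetected on all 12 arrays.

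**Figure D2:**
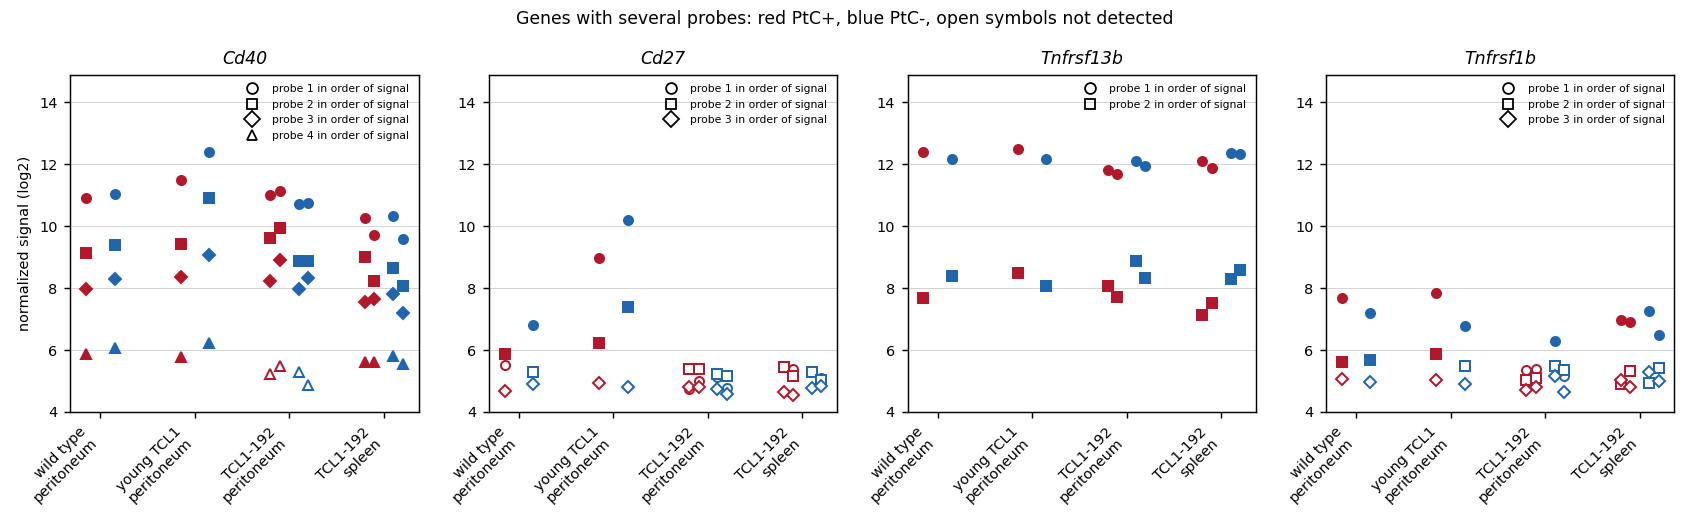
Log2 level on each array of every probe of Cd40, Cd27, Tnfrsf13b and Tnfrsf1b, by genotype and tissue; marker shapes stand for probes, red for PtC+ and blue for PtC-, and open symbols for undetected probes. The 3 brighter Cd40 probes are lower in TCL1-192 spleen than in peritoneum and both detected Cd27 probes are highest in young TCL1 cells, while the Tnfrsf13b probes do not move together; probes are compared for direction, not for level.

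Counted by comparison, 5 of 8 members were called between TCL1-192 and wild type peritoneum, 1 higher (Tnfrsf13c) and 4 lower (Ltb, Lta, Cd27 and Tnfrsf1b), where 27.4% of all genes were called, 11.8% higher and 15.6% lower. The median difference of the tested members was -0.81, against 0.03 for all genes. Between TCL1-192 and young TCL1 peritoneum 4 of 8 members were called, all lower (Ltb, Cd27, Cd40 and Tnfrsf1b), where 19.7% of all genes were called, 7.94% higher and 11.7% lower. Their median was -0.74, against 0.01 for all genes. These comparisons share the TCL1-192 arrays, and the members that passed the detection filter include Cd27, which passed only through the young TCL1 arrays, where it was high. Between spleen and peritoneum 3 of 8 members were called, 2 higher (Tnfrsf13c and Tnfrsf1b) and 1 lower (Cd40), where 26.7% of all genes were called, 15.5% higher and 11.1% lower. With arrays centred on their medians the median of all genes moved to 0.24 between the tissues, -0.23 against wild type and -0.25 against young TCL1, and the share of higher genes among all called went from 58.3% to 88.5%, from 43.2% to 17.8% and from 40.4% to 15.5%. Under that scaling 2, 4 and 4 members were called in the 3 comparisons, each in the direction given above.

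**Figure D3:**
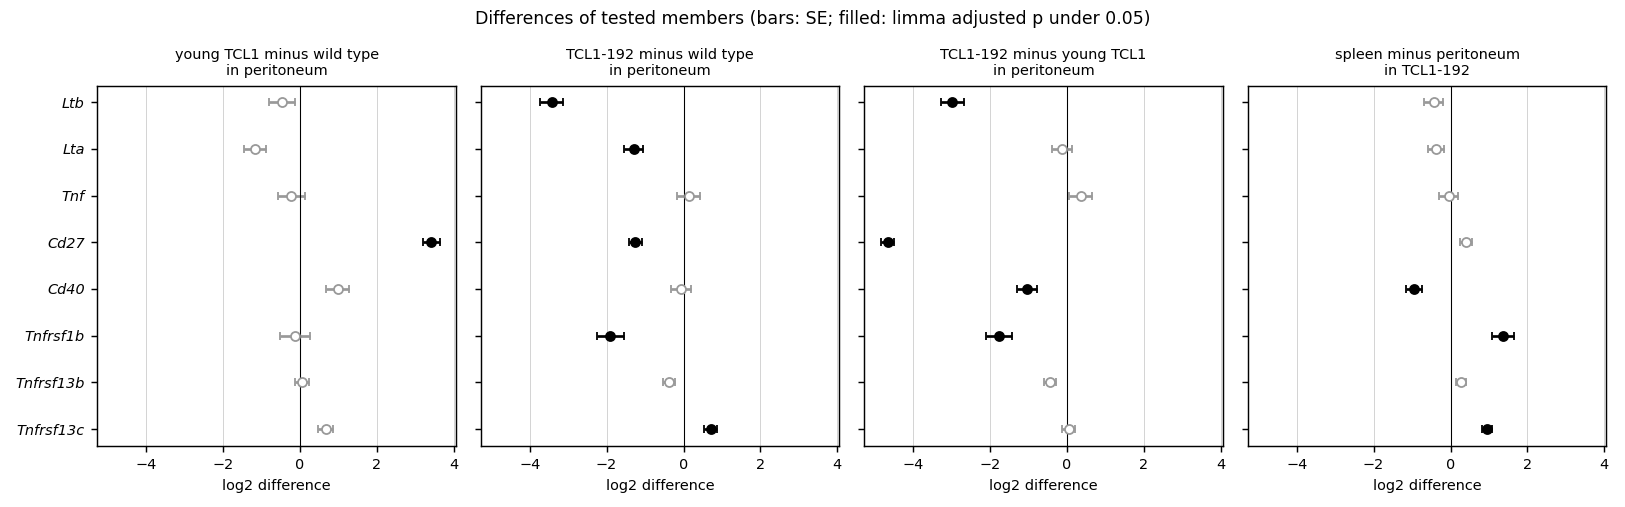
Log2 difference (horizontal axis) with its SE for the 8 tested members in 4 comparisons; filled points had a limma adjusted p under 0.05. Ltb and Tnfrsf1b are filled and below 0 in both comparisons of TCL1-192 peritoneum, Cd27 is at 3.42 from wild type to young TCL1 and at -4.67 from young TCL1 to TCL1-192, and Cd40 and Tnfrsf13c lie on opposite sides of 0 between the tissues.

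Few members passed the threshold between PtC classes. In TCL1-192 cells over both tissues 0 of 8 members passed limma's adjusted threshold, as did 0% of all genes, with 1 member (Tnfrsf13b, -0.31 ± 0.13, limma adjusted p = 0.58) and 1129 genes at an unadjusted p under 0.05. Ltb was lower in every PtC+ than in every PtC- array of TCL1-192 peritoneum (-0.98 ± 0.34, limma adjusted p = 0.21), and gave -0.02 ± 0.34 in spleen. The dimmer Tnfrsf13b probe was lower in PtC+ cells in both tissues, at 8.08 and 7.71 against 8.86 and 8.34 in peritoneum and at 7.12 and 7.53 against 8.29 and 8.58 in spleen (-0.91 ± 0.19, limma adjusted p = 0.6). The PtC difference did not differ between tissues past the threshold for any of 8 members (0% of all genes in limma, with 0 members and 1520 genes at an unadjusted p under 0.05).

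In wild type and young TCL1 cells together Cd27 was lower in PtC+ than in PtC- cells, the 1 of 8 members called, where 1.12% of all genes were called, 0.281% higher and 0.842% lower. The difference was -1.25 ± 0.21 (limma adjusted p = 0.046), with -1.28 ± 0.29 in wild type and -1.22 ± 0.29 in young TCL1 cells, neither of them called alone. As above, its SE and p rest on the spread of TCL1-192 arrays, where Cd27 was undetected. In PtC+ wild type cells Cd27 was undetected at 5.52. Fitted over 18100 probes, the same probe gave a limma adjusted p of 0.059, and a weaker probe -0.27 ± 0.20 (limma adjusted p = 0.88). In wild type that weaker probe went the other way, at 5.87 in PtC+ and undetected at 5.28 in PtC- cells. Nkg7, an NK and T cell gene, was lower in PtC+ cells too (-1.60 ± 0.18, limma adjusted p = 0.0073), and its part in the Cd27 difference was not tested. The Cd27 call was lost under most alternatives, 6 of the 8 that leave out an array among them. Lta (-0.97 ± 0.28, limma adjusted p = 0.32) and Ltb (-0.67 ± 0.34, limma adjusted p = 0.7) were lower in PtC+ cells of both genotypes without passing. Whether the PtC difference in TCL1-192 peritoneum departed from that in wild type and young TCL1 was tested as well, and 0 of 8 members passed in limma (0.69% of all genes did, 0.561% with a higher and 0.129% with a lower value), with Lta and Cd27 at an unadjusted p under 0.05.

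Other genes of the pathway were counted in 3 lists, to be read beside all genes tested: 27.4% of them were called in TCL1-192 peritoneum against wild type (11.8% higher, 15.6% lower), 19.7% against young TCL1 (7.94% higher, 11.7% lower), 26.7% in spleen against peritoneum (15.5% higher, 11.1% lower) and 1.52% in young TCL1 against wild type. Of other TNF ligands 6 of 14 could be tested, and 1 was called: Tnfsf13b, which encodes BAFF, was undetected in TCL1-192 peritoneum and at 5.67 to 5.76 in wild type cells (-0.88 ± 0.20, limma adjusted p = 0.018). These levels were so near the lowest detected ones that no fold can be given. Of 15 other receptors tested, 5 fell and 0 rose in TCL1-192 peritoneum against wild type, with a median of -0.68. The receptors called included several near the detection limit. Tnfrsf21 (death receptor 6) was at least 1.40-fold lower, Tnfrsf1a (TNF receptor 1) at least 1.16-fold and Tnfrsf8 (CD30) at least 1.12-fold, Ngfr (the p75 neurotrophin receptor) gave -1.0 ± 0.25 and Tnfrsf14 (HVEM) -0.79 ± 0.23, with 2 and 1 of the 4 TCL1-192 arrays detected. Tnfrsf21, Tnfrsf1a and the ligand Tnfsf13b were undetected on every TCL1-192 array. They passed the detection filter only through wild type and young TCL1 arrays, so they could only count as lower in TCL1-192. The counts of falls and the medians include such genes. Against young TCL1 another count of 5 fell and 0 rose, with a median of -0.60. Tnfrsf18 (GITR) gave -0.88 ± 0.22, Tnfrsf4 (OX40) -1.11 ± 0.29 and Tnfrsf14 -1.01 ± 0.23, the last pair with 1 of 4 TCL1-192 arrays detected each. Tnfrsf8 was at least 1.01-fold lower, with 1 of 2 young TCL1 arrays detected. The differences given for Ngfr, Tnfrsf14 and Tnfrsf4 use measured values, undetected arrays included. They would be smaller with those arrays at their lowest detected level. Tnfrsf25 (death receptor 3) was detected on the 2 young TCL1 arrays alone, so its SE and p rest on arrays that did not detect it. Tnfrsf25 thus passed the detection filter through the group where it was high. It was at least 1.45-fold lower in TCL1-192 peritoneum than in young TCL1 (-1.55 ± 0.15, limma adjusted p = 0.00066) and at least 1.83-fold lower in wild type (limma adjusted p = 0.033), the 1 other receptor called in that comparison. In spleen against peritoneum 3 rose, Tnfrsf8 (1.09 ± 0.19, at least 1.16-fold), Tnfrsf19 (1.01 ± 0.29) and Ngfr (0.77 ± 0.20), and 1 fell, the death receptor gene Fas (-0.93 ± 0.28), which is near the share of all genes.

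Adaptors and signalling genes formed the third list. Of 30 tested, 8 fell and 1 rose in TCL1-192 peritoneum against wild type (median -0.40), and again 8 fell and 1 rose against young TCL1 (median -0.32). Among all genes 15.6% were lower and 11.8% higher against wild type, so only the total was near that share. Against young TCL1 11.7% were lower and 7.94% higher. Tnfaip3, the A20 inhibitor of NF-kB, was at 8.23 and 7.67 in wild type and at 7.55 and 7.73 in young TCL1 cells. It was undetected on all 4 peritoneal TCL1-192 arrays and at 6.89 to 7.35 in spleen, so that peritoneal TCL1-192 cells stood alone. It was at least 4.24-fold lower in TCL1-192 peritoneum than in wild type (limma adjusted p = 0.00028), at least 3.43-fold lower than in young TCL1 (limma adjusted p = 0.00066) and at least 2.48-fold higher in spleen (2.19 ± 0.21, limma adjusted p = 0.00085). Traf1, an adaptor induced by NF-kB, was at 9.38 and 9.19 in wild type, 9.44 and 9.0 in young TCL1, 6.95 to 7.59 in TCL1-192 peritoneum and 8.63 to 9.0 in spleen. It fell by 1.96 on the log2 scale against wild type and by 1.90 against young TCL1, and rose by 1.47 in spleen. Traf3, which restrains the non-canonical NF-kB pathway, fell by 2.13 against wild type and rose by 1.17 in spleen. Nfkb2, the precursor of that pathway, gave -2.24 ± 0.45 against wild type and -2.03 ± 0.45 against young TCL1 (limma adjusted p of 0.011 and 0.021). It was detected on 1 of the 4 TCL1-192 arrays, and with the other 3 set to the higher of their own value and the lowest level detected on them the folds were 3.14 and 2.72. Relb gave -1.66 ± 0.40 against young TCL1. The gene that rose in both comparisons was Siva1 (1.03 ± 0.16 and 0.92 ± 0.16), which encodes a CD27-binding adaptor. In spleen 6 of the 30 rose, Rnf31 (0.81 ± 0.24) among them, and 1 fell, Tradd (-0.65 ± 0.19), with a median of 0.02. Among all genes 15.5% were higher and 11.1% lower there.

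**Figure D4:**
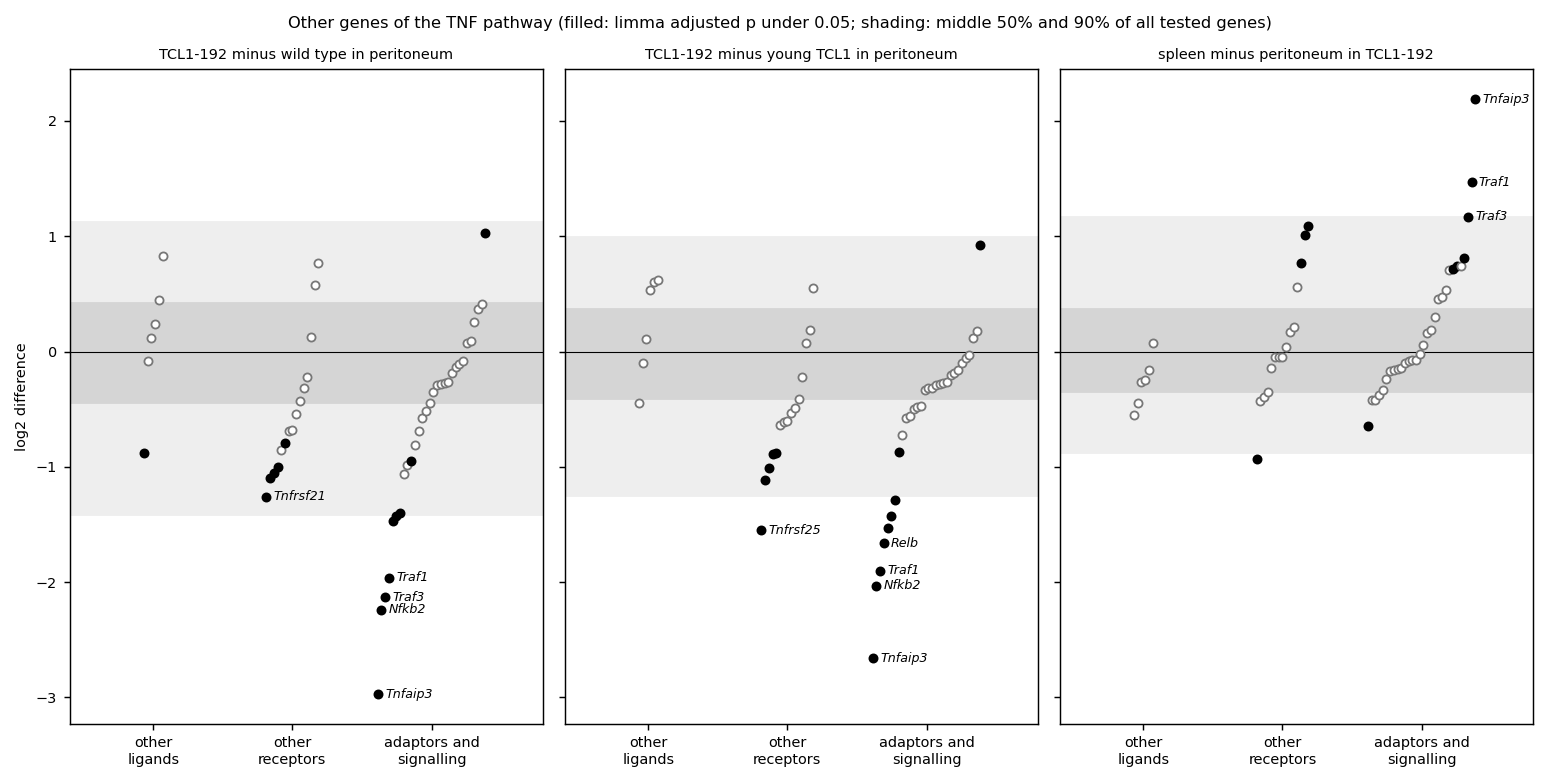
Log2 differences (vertical axis) of the other TNF ligands, receptors and adaptors in 3 comparisons; each point is a gene, filled where the limma adjusted p was under 0.05, and shading gives the middle 50% and 90% of all genes tested. Tnfaip3 lies lowest among the adaptors against wild type (-2.97) and against young TCL1 (-2.66), and Tnfaip3 and Traf1 lie highest in the spleen panel.

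The genes whose log2 level over the 12 arrays was most like that of a member are given as a description, since all arrays share genotypes and preparation and only members detected on at least 6 arrays were used. For Ltb they were LOC100044376 (r = 0.984, a name of the array design, detected on 4 arrays), Nfkbia (0.983), which encodes the NF-kB inhibitor IkB alpha, and Herpud1 (0.982), an endoplasmic reticulum stress gene. For Tnfrsf13c they were Hist1h1c (0.98), LOC100047214 (0.962) and 1810015C04Rik (0.959), and for Tnfrsf1b Specc1 (0.972), Ssh1 (0.968) and Disp1 (0.967). Cd40 was followed by Gmfg (0.949), Slc30a6 (0.942) and 1200016B10Rik (0.937), and Tnfrsf13b less closely by EG210457 (0.891) and Rab7 (0.886). Among members themselves the correlation was highest between Tnfrsf13b and Tnfrsf1b (0.82) and lowest between Lta and Tnfrsf13c (-0.73).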

How the data were processed

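Total RNA was prepared with Trizol and RNeasy columns with DNase I, and biotinylated cRNA was made with an Ambion MessageAmp kit, per the labels' protocols. The deposited non-normalized table gave a signal intensity for 45281 probes on each of 12 arrays and, per the file headers, a detection p-value. The second deposited table gave intensity values with equal quantiles (medians 119.2 to 119.3), and each column matched its own array of the first table best (r = 0.9913 to 0.9999). No source used here names its tool. It served as an alternative, on a log2 scale computed here from the deposited values.

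Signals were processed in R 4.3.3 with limma 3.58.1: neqc with an offset of 16 and control values inferred from detection p-values, then quantile normalization and log2. Probes detected (p under 0.05) on at least 2 arrays were kept (18100), and the brightest kept probe of a symbol was used (3479 symbols had several), giving 13190 genes. The limma model held a mean for each of 8 groups, which left 4 residual degrees of freedom beside 3.13 of its moderated prior, and two-sided p-values were adjusted by Benjamini-Hochberg within each of 8 contrasts. Fits were tested on simulated data. Averages over PtC classes or tissues weight the groups equally.

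Members and lists were chosen with earlier results of these data known. All members are named. Of other lists, up to 4 called genes per contrast are named, by size of difference, where the groups did not overlap, and for each member seen on at least 6 arrays the 3 genes most correlated with it, of which 1 for Tnfrsf13b is not reported here. Marker genes are named where they moved with a contrast. Fas, Tnfrsf18, Tnfrsf19, Siva1, Tradd, Ngfr in spleen and Tnfrsf14 against wild type, which complete small counts, were named after their values were seen. Of 10 members, 10 were in the RefSeq gene table and 8 in its promoter table. Protein and probe sequences were not used here. Alternatives covered background, scaling, the authors' table, detection filter, probe choice, prior, array weights, a replicate block, each TCL1-192 array left out, and single PtC classes, tissues or genotypes.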

Additional observations from a re-analysis of the deposited data

How the results depend on the processing

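Over these alternatives no called difference of a member turned its direction. Ltb was called against wild type (-3.75 to -3.22) and young TCL1 (-3.34 to -2.75) in all 19 settings each, and Cd27 between young TCL1 and the other peritoneal groups in every setting that kept it, 18 each. For Cd27 that count adds no support. It passed the filter only through the young TCL1 arrays, where it was high, and the settings reuse these same arrays. Of 1160 single-gene comparisons with an alternative, 1065 kept their side of the threshold and their sign, 35 lost a call, 12 gained a call and 48 changed sign. Those 48 were called neither as reported nor in that alternative. The number of members called against wild type went from 5 to 3 with detection on at least 6 arrays, which removes Lta, Tnf and Cd27, to 2 within PtC+ and to 3 within PtC- cells. Between tissues it went from 3 to 0 within PtC- cells. Between young TCL1 and wild type it went from 1 to 0 with detection on at least 6 arrays and to 2 with an intensity trend, which added Tnfrsf13c. The PtC count in wild type and young TCL1 went from 1 (Cd27) to 0 with median centring, detection on at least 6 arrays, the mean of kept probes, an intensity trend, or within either genotype.

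Leaving out TCL1-192 arrays gave 1 to 5 called members between tissues, 5 to 5 against wild type, 3 to 4 against young TCL1, 1 to 2 between young TCL1 and wild type, 0 to 0 for PtC in TCL1-192, 0 to 1 for PtC in wild type and young TCL1, and 0 to 0 and 0 to 2 for the differences of the PtC effect between tissues and between genotypes. The 5 came without peritoneal PtC- replicate 1, which added Ltb (-0.61) and Cd27 (0.49), and the 1 (Tnfrsf13c) without peritoneal PtC+ replicate 2. Without peritoneal PtC- replicate 1 the genes called for PtC in TCL1-192 went from 0 to 1533, with 0 members among them, and Lta and Cd27 were called for the PtC difference between genotypes. The 2 called between young TCL1 and wild type without either peritoneal PtC- array were Cd27 and Lta (-1.17). Over all alternatives the genes called ranged from 863 to 5953 between tissues (3516 as reported), 1239 to 6048 against wild type (3613), 1472 to 5328 against young TCL1 (2594), 57 to 504 between young TCL1 and wild type (201), 4 to 275 for PtC in wild type and young TCL1 (148), and 0 to 1644 (0) and 1 to 2250 (91) for the differences of the PtC effect between tissues and between genotypes. Each highest count came without peritoneal PtC- replicate 1. For young TCL1 against wild type and for PtC in wild type and young TCL1 the same count came without peritoneal PtC- replicate 2. The lowest came within a PtC class or with detection on at least 6 arrays where the count was not 0 as reported.

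Whether replicate numbers pair the TCL1-192 samples is not given by the labels. Deviations of same-numbered samples correlated at 0.05 to 0.26. With the replicate block the PtC count in wild type and young TCL1 went from 1 to 0 members, and the other 7 counts of members stayed. A slide block was not run, as column names give no slide. Detection limits what can be said of Lta, Tnf and Cd27 in TCL1-192 cells, and of Cd70 and Tnfrsf17 anywhere, and causes of the changes between settings were not tested.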
